A study of Mus musculus with 8 samples.

Results

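The 44 genes described here are interferon-stimulated genes of the mouse, chosen by symbol as antiviral effectors, RNA sensors, transcription factors and interferon-inducible GTPases. A gene was taken wherever its symbol stood in the gene expression tables of activated hepatic stellate cells (HSCs) and bone marrow-derived macrophages (BMDMs). All 44 were listed in both tables, among 18645 genes for HSCs and 17408 for BMDMs. The HSC cultures, which came from C57BL/6 liver, were exposed to 0.03 µM auranofin for 12 h or served as controls, which the labels call untreated and a figure legend of the study calls vehicle (the word used here). The BMDMs, grown with M-CSF from the marrow of 8-week-old male C57BL/6 mice, all received ATP at 1 mM and LPS at 100 ng/ml. They were exposed to vehicle or 0.1 µM auranofin for 1 h. Legends of the study's macrophage experiments give 4 h of LPS before ATP and auranofin, which is not stated for the sequenced libraries. Every group held 2 libraries, and no BMDM library without LPS and ATP was analysed here. Auranofin is a gold-containing drug used in rheumatoid arthritis. LPS is a bacterial cell wall component that macrophages sense through Tlr4, and ATP triggers the NLRP3 inflammasome in primed cells. No source used here says that the libraries of a group came from separate animals or cultures, so the p-values measure only the spread between these libraries, which may be technical.

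Type I interferons are secreted by cells that sense viral or bacterial products. They bind the receptor made of Ifnar1 and Ifnar2, whose kinases Jak1 and Tyk2 start the signal; Stat2 and Irf9 then enter the nucleus in a complex that binds the interferon-stimulated response element in the promoters of antiviral genes. Interferon gamma acts through Ifngr1 and Ifngr2, and many of its target promoters hold the gamma-activated site. In macrophages LPS induces interferon beta through Tlr4, Ticam1 and Irf3, so that interferon-stimulated genes follow LPS.

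The promoters of 4 members are shown, because these genes stand at the ends of the results below: Ifit1 (the member that passed the test in HSCs), Gbp2 and Isg15 (a large and a small difference in BMDMs) and Oasl1 (the opposite direction). The promoters are RefSeq sequences of GRCm38.p6, given 5′ to 3′ on the strand of the gene and ending at its outermost transcription start. For Oasl1 only 153 bases are shown, because the RefSeq window is set on a start further downstream. Capitals mark matches to the response element, searched as GAAA repeated after a gap of 2 bases, on either strand (TTTC repeated on the other). Ifit1 lies at chr19:34640639-34640888, plus strand; Gbp2 at chr3:142620413-142620662, plus strand; Isg15 at chr4:156200819-156201068, minus strand; Oasl1 at chr5:114922990-114923142, plus strand.
Ifit1 promoter: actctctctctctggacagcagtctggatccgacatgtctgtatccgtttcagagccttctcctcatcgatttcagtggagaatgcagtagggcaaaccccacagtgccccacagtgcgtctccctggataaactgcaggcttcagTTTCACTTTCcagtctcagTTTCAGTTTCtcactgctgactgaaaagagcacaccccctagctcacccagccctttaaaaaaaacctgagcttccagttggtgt
Gbp2 promoter: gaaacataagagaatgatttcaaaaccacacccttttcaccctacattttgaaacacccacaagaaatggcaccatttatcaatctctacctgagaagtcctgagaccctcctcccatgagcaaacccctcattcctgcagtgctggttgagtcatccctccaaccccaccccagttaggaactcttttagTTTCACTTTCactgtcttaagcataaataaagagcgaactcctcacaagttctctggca
Isg15 promoter: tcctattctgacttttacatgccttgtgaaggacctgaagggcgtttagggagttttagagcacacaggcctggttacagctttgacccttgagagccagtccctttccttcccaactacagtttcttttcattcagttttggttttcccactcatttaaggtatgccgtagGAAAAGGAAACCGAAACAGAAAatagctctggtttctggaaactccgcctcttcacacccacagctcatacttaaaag
Oasl1 promoter: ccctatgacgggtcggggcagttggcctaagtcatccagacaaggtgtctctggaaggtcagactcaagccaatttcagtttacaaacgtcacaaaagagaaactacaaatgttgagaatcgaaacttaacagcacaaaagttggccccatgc

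Ifit1 held 2 matches, with first bases at -104 and -85 from the start, and Gbp2 held 1, at -59. Isg15 held 3 overlapping matches that run together from -78, and no match was found in the 153 bases shown for Oasl1. RefSeq windows from 250 bases before to 50 bases after the start were found for 34 of the 44 members. The element was present in 20 of these 34 genes (58.8%), against 3.99% of 27025 genes with such windows; by window it was present in 51.2% of the members' 41 windows and in 3.44% of all 32851. The gamma-activated site TTCNNNGAA, searched in the same way, was present in 10 of the 34 members (29.4%) and in 9.55% of all genes, and in 1 member window it overlapped a response element. A match describes the letters of the window and not a bound site.

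**Figure D1:**
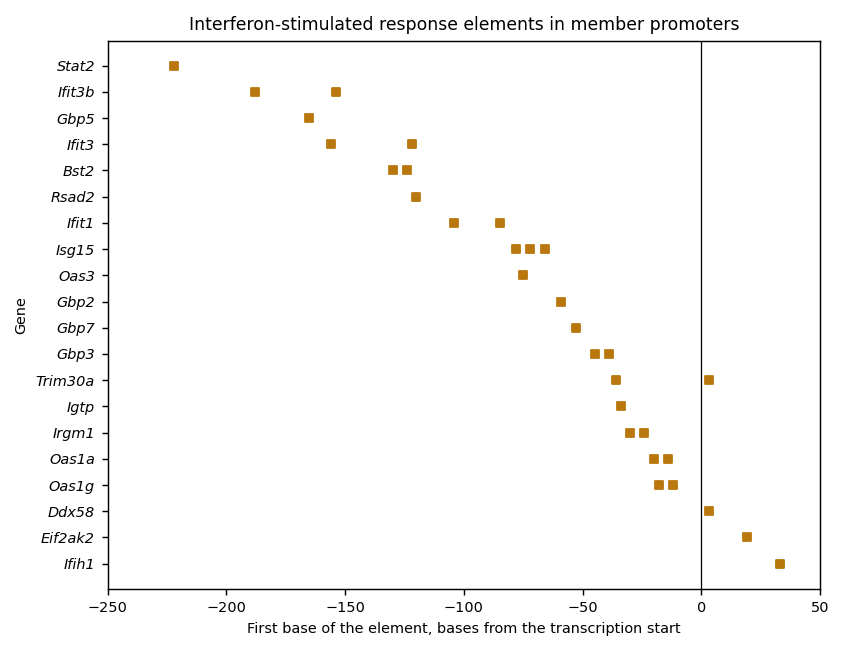
Position of each match to the response element (GAAA repeated after a gap of 2 bases, either strand) in the promoters of the 20 members that hold one; the x axis gives the first base of the match in bases from the transcription start (vertical line) and each row is a gene. Most matches lie before the start, as in Ifit1 (-104 and -85) and Gbp2 (-59).

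The libraries were estimated to hold 27500000 to 39400000 fragments. In the HSC cultures the 15 macrophage markers summed to 8583 to 8849 FPKM (fragments scaled to transcript length and to the library) and the 13 stellate markers to 4105 to 4773 FPKM, so that macrophage transcripts such as Lyz2 (5379 to 5554 FPKM) stood beside those of stellate cells such as Col1a1 (927 to 1075 FPKM). Fewer cells of a type and less RNA per cell cannot be told apart in these cultures. The 9 endothelial markers summed to 225 to 239 FPKM in HSC libraries. Hepatocyte markers summed to at most 2.54 FPKM and lymphocyte markers to at most 0.462 FPKM in HSC libraries. In BMDMs the 2 auranofin libraries were unlike: Hmox1, a heme-degrading enzyme induced by oxidative stress, stood at 82.7 and 86.7 FPKM with vehicle, at 4403 FPKM in auranofin replicate 1 and at 85.3 FPKM in auranofin replicate 2. Gclm, a subunit of the enzyme that starts glutathione synthesis, stood at 6.08 and 6.12 FPKM, then at 129 and 6.72 FPKM. Srxn1, which repairs oxidised peroxiredoxins, stood at 18.1 and 17.3 FPKM, then at 385 and 17.3 FPKM. In HSC cultures both treated libraries were high in Hmox1, with 1297 and 1141 FPKM against 391 and 368 FPKM. These 3 genes stood at or near the vehicle level in BMDM auranofin replicate 2. Whether that library was exposed as its label says was not tested, and each value over both treated BMDM libraries rests on that label. Of the genes tested in BMDMs, 12.7% differed at least 2-fold between these 2 libraries. The calls and medians of the members in BMDMs are therefore given for both libraries together and for each alone. Some further BMDM results are given for auranofin replicate 1 alone and describe that library only. The part of the stress genes in the members' levels was not tested.

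Without auranofin, all 44 members were higher in LPS/ATP BMDMs than in HSC cultures. The ratio of the vehicle means ran from 3.18 for Irf9 to 667 for Mx1, with a median of 34.3; it was over 10 for 38 members and over 100 for 10. The tables were normalized separately, so these levels are set side by side with no test. In BMDMs the highest were Rsad2, the antiviral enzyme viperin (3025 and 2918 FPKM), Isg15, a ubiquitin-like modifier (2381 and 2372 FPKM), Cmpk2, a mitochondrial nucleotide kinase (1690.2 and 1711 FPKM), Ifit3 (1610.3 and 1537 FPKM) and Ifit2 (1573 and 1574 FPKM). Ifit3 and Ifit2, relatives of the RNA-binding Ifit1, could not be ordered, since their vehicle ranges overlapped. In HSC cultures the order was another: Bst2, which tethers budding virions, was highest (157 and 173 FPKM), followed by the GTPase Irgm1 (43.0 and 42.1 FPKM), the transcription factor Irf1 (37.0 and 38.1 FPKM), Gbp2 (22.7 and 20.9 FPKM) and Oas1a (21.2 and 21.4 FPKM). The last pair could not be ordered, and the values of Isg15 (18.3 and 21.9 FPKM) and Irf7 (17.3 and 21.9 FPKM) overlapped theirs. Mx1, Mx2 and Gvin1 were under 1 FPKM on average in HSC cultures and were not tested there. Together the members made up 5.35% and 5.32% of the summed FPKM of the vehicle BMDM libraries, and 0.148% and 0.157% of the vehicle HSC libraries.

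**Figure D2:**
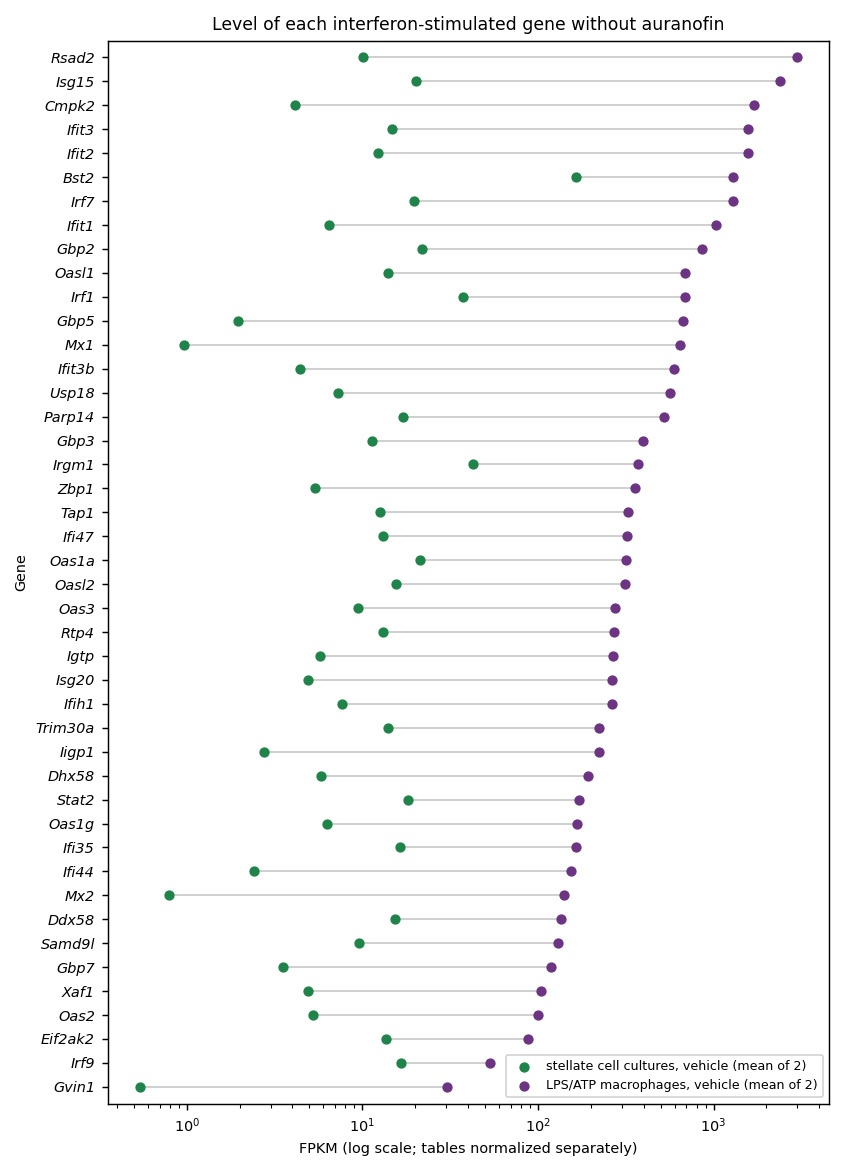
Mean FPKM of the 2 vehicle libraries (log axis) for each of the 44 members, green for HSC cultures and purple for LPS/ATP BMDMs; rows are ordered by the BMDM level. All 44 purple points lie to the right of the green point of the same gene, by 3.18-fold for Irf9 up to 667-fold for Mx1.

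In HSC cultures exposed to auranofin, 1 of the 41 interferon-stimulated genes tested fell by the test across all genes and none rose. That gene was Ifit1, which binds viral RNA with incomplete caps. It read 6.18 and 6.78 FPKM with vehicle against 4.52 and 4.62 FPKM with auranofin, so both treated libraries were below both vehicle libraries. The means were 6.48 ± 0.426 and 4.57 ± 0.0665 FPKM (SD, n = 2 each), and the log2 fold change on log2(FPKM + 1) was -0.42 (SE 0.061, limma, Benjamini-Hochberg adjusted p = 0.0338). The adjusted p was over 0.05 without a filter on low values, without a variance trend, and without either auranofin library or vehicle replicate 2. Of all 12149 genes tested, 2.33% were called in either direction and 1.09% were called lower, against 1 of 41 members (2.44%); 1.24% were called higher, against no member. The share of members called was therefore near that of all genes.

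Small differences of 1 direction ran through the list. The log2 fold change was below 0 in 38 of the 41 members tested (92.7%), as in 47.8% of all genes tested. Both auranofin libraries were below both vehicle libraries in 30 members (73.2%), as in 23.9% of all genes, and above them in 1 member, Tap1 (2.44%; all genes 26.2%). An unadjusted limma p under 0.05 with a lower level was reached by 23 members (56.1%; all genes 9.22%) and by no member with a higher level (all genes 8.57%). The median log2 fold change of the members was -0.17, from -0.42 to 0.067, and that of all genes was 0.0049. It was -0.20 in auranofin replicate 1 and -0.11 in replicate 2, and in vehicle replicates 1 and 2 it was -0.021 and 0.021 from their own mean. No member reached 1.5-fold with an unadjusted p under 0.05, a rule met by 0.576% of all genes.

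**Figure D3:**
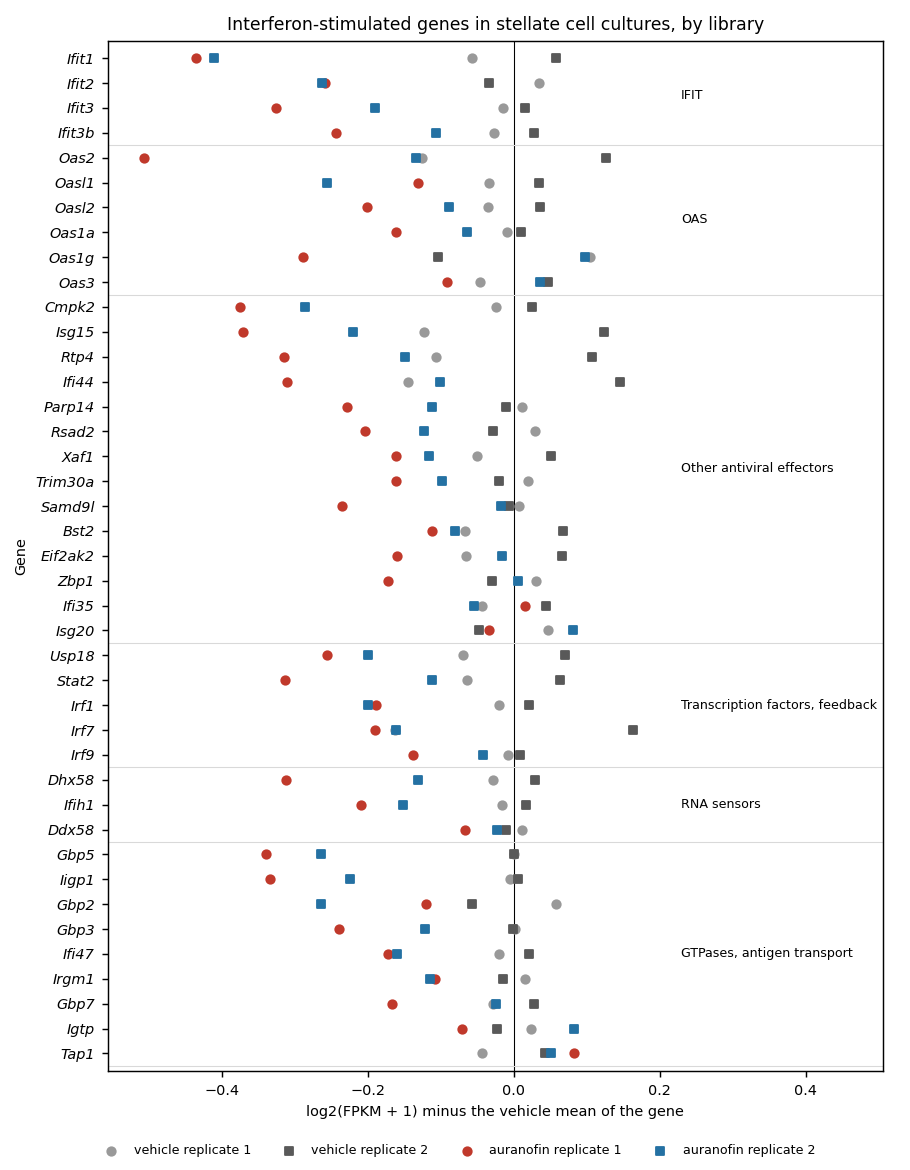
Difference of each HSC library from the vehicle mean of the gene on log2(FPKM + 1), for the 41 members tested, grouped by role; grey marks are the 2 vehicle libraries, red and blue the 2 auranofin libraries. Red and blue marks lie left of both grey marks in 30 genes, with Ifit1 at -0.44 and -0.41, and right of both in Tap1.

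The 4 IFIT genes were each lower without overlap (all genes 23.9%), with log2 fold changes of -0.42 to -0.18. Ifit2 read 12.7 and 12.01 FPKM with vehicle against 10.1 and 10.1 FPKM with auranofin (limma, adjusted p = 0.0578), the member next to the threshold. Ifit3 and Ifit3b are near copies and their fragments may have been split between them.

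All 6 OAS genes, which make the oligoadenylates that activate RNase L or are relatives of those enzymes, had a log2 fold change below 0. Of them, 4 were lower without overlap (all genes 23.9%) and none passed the test. Oas2 had the largest difference, with 4.68 and 5.77 FPKM with vehicle against 3.36 and 4.65 FPKM with auranofin (limma, adjusted p = 0.318). Its second treated library lay just under the lower vehicle library. Oas1a and Oas1g are also similar in sequence, so their split is uncertain.

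Of the 14 other antiviral effectors tested, 13 had a log2 fold change below 0 (all genes 47.8%) and 9 were lower without overlap (all genes 23.9%). Cmpk2 read 4.02 and 4.198 FPKM with vehicle against 2.94 and 3.19 FPKM with auranofin (log2 fold change -0.33, limma, adjusted p = 0.0667). Isg20, an exonuclease that degrades single-stranded RNA, was the exception with 5.12 and 4.73 FPKM against 4.79 and 5.27 FPKM, and its groups overlapped. Bst2, the most abundant member, read 157 and 173 FPKM with vehicle against 153 and 156 FPKM with auranofin (limma, adjusted p = 0.39).

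The transcription factors and the feedback gene Usp18 had log2 fold changes below 0 in 5 of 5, and the RNA sensors in 3 of 3. Usp18, which removes Isg15 from proteins and dampens receptor signalling, read 6.89 and 7.69 FPKM with vehicle against 5.93 and 6.21 FPKM with auranofin (limma, adjusted p = 0.156). Irf1 read 37.0 and 38.1 FPKM against 32.8 and 32.6 FPKM (limma, adjusted p = 0.0643). Dhx58, a regulator of RNA sensing known as LGP2, read 5.65 and 5.93 FPKM against 4.47 and 5.20 FPKM (limma, adjusted p = 0.214). In each of these 3 genes the treated libraries lay below the vehicle libraries, as in 23.9% of all genes, and none passed the test.

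Of the 9 GTPases and antigen transport genes tested, 7 had a log2 fold change below 0, and 6 of them did not overlap (all genes 23.9%). Gbp5, a guanylate-binding protein of the inflammasome response, read 1.96 and 1.96 FPKM with vehicle against 1.34 and 1.46 FPKM with auranofin (limma, adjusted p = 0.117). Gbp2 read 22.7 and 20.9 FPKM against 19.97 and 17.96 FPKM, and Irgm1 43.0 and 42.1 FPKM against 39.4 and 39.2 FPKM. Tap1, which carries peptides to MHC class I molecules, read 12.2 and 13.1 FPKM with vehicle against 13.4 and 13.1 FPKM with auranofin (log2 fold change 0.067, limma, adjusted p = 0.532). The Gbp genes are a family of similar sequence, which makes their single values less certain.

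Cell type markers moved as follows in the same libraries. The 14 macrophage markers tested had a median log2 fold change of -0.033, with 1 called higher (Clec4f, a Kupffer cell lectin) and none called lower. The 13 stellate markers had a median of -0.13, with 1 called lower (Acta2, log2 fold change -0.38). The 9 endothelial markers had a median of 0.026, with 2 called lower (Stab2 at -0.37 and Clec4g at -0.44). Of all genes, 1.09% were called lower and 1.24% higher. The part of cell composition in the members' differences was not tested.

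Other genes of the pathway were taken from a list of 112 ligands, receptors, inducers, brakes and further interferon-induced genes, of which 95 were tested in HSC cultures. Of these, 5 were called lower (all genes 1.09%) and 1 higher (all genes 1.24%), all among the 65 further interferon-induced genes, and the median of the list was -0.063. The GTPase Tgtp2 fell from 4.74 and 4.86 FPKM to 3.20 and 3.25 FPKM (limma, adjusted p = 0.0212), and Tor3a, Slfn2, Mnda and Gbp8 fell with log2 fold changes of -0.29, -0.25, -0.27 and -0.30. Mlkl, the executor of necroptosis, rose from 14.2 and 14.0 FPKM to 20.6 and 19.2 FPKM (limma, adjusted p = 0.0122). These 6 genes did not overlap between the groups, as was so for 50.1% of all genes in either direction. All 6 lost their call without a filter on low values, Tor3a, Slfn2, Mnda and Gbp8 without a variance trend, and Mnda under quantile normalization. Gbp8 also lost it with any 1 library left out, Mnda with any but vehicle replicate 1 left out, Tor3a and Slfn2 without either auranofin library, and Tgtp2 without auranofin replicate 1. None of the 9 receptors and kinases tested was called, and Ifnar1, Ifnar2, Ifngr1, Ifngr2, Jak1 and Tyk2 had log2 fold changes of -0.057 to 0.044. Irf3 had one of 0.0058, which turned below 0 under quantile normalization. Ifnb1, the interferon beta gene, was listed at 0.121 FPKM in vehicle replicate 1 and at 0 in the other HSC libraries.

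In LPS/ATP BMDMs, auranofin replicate 1 had lower levels of most members and replicate 2 did not. With both libraries against vehicle, none of the 44 members passed the test, and limma called 1 of 9232 genes (0.0108%) at an adjusted p under 0.05. At an unadjusted p under 0.05 there were 49 genes (0.531%), 1 of them a member. The log2 fold change was below 0 in 39 of 44 members (88.6%; all genes 33.9%), with a median of -0.23 against 0.089 for all genes. Both treated libraries were below both vehicle libraries in 14 members (31.8%; all genes 12.6%) and above them in Oasl1, Bst2 and Rtp4 (6.82%; all genes 26.3%). By library, the median of the members was -0.48 in auranofin replicate 1, where that of all genes was 0.18, and 0.015 in replicate 2, where that of all genes was 0.0049.

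The member with the unadjusted p under 0.05 was Gvin1, a very large interferon-inducible GTPase. It read 29.5 and 31.5 FPKM with vehicle against 13.1 and 20.4 FPKM with auranofin, and it was the only member that was lower by over 10% in both treated libraries. Its log2 fold change was -0.85 (SE 0.24, limma, unadjusted p = 0.0229, adjusted p = 0.721), which met the rule of 1.5-fold with an unadjusted p under 0.05, as 0.065% of all genes did in that direction. Gvin1 has close relatives in the genome, and its values are uncertain for that reason.

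Auranofin replicate 1 was next compared alone with the 2 vehicle libraries, on the assumption that this single library varies like the vehicle libraries. That comparison called 37 of the 44 members lower (84.1%) and 2 higher, Oasl1 and Bst2 (4.55%), where 20.0% of all genes were called lower and 44.9% higher (limma, adjusted p under 0.05). It compares libraries and not conditions. A level at or under 1/1.5 of the vehicle mean was found in 18 members (40.9%), as in 9.75% of all genes. Auranofin replicate 2 alone gave no called member (0.141% of all genes called), and its 44 members ran from -33.0% (Gvin1) to 9.79% (Isg15) from the vehicle mean. The share of the summed FPKM that the members took was 3.96% in auranofin replicate 1 and 5.32% in replicate 2.

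**Figure D4:**
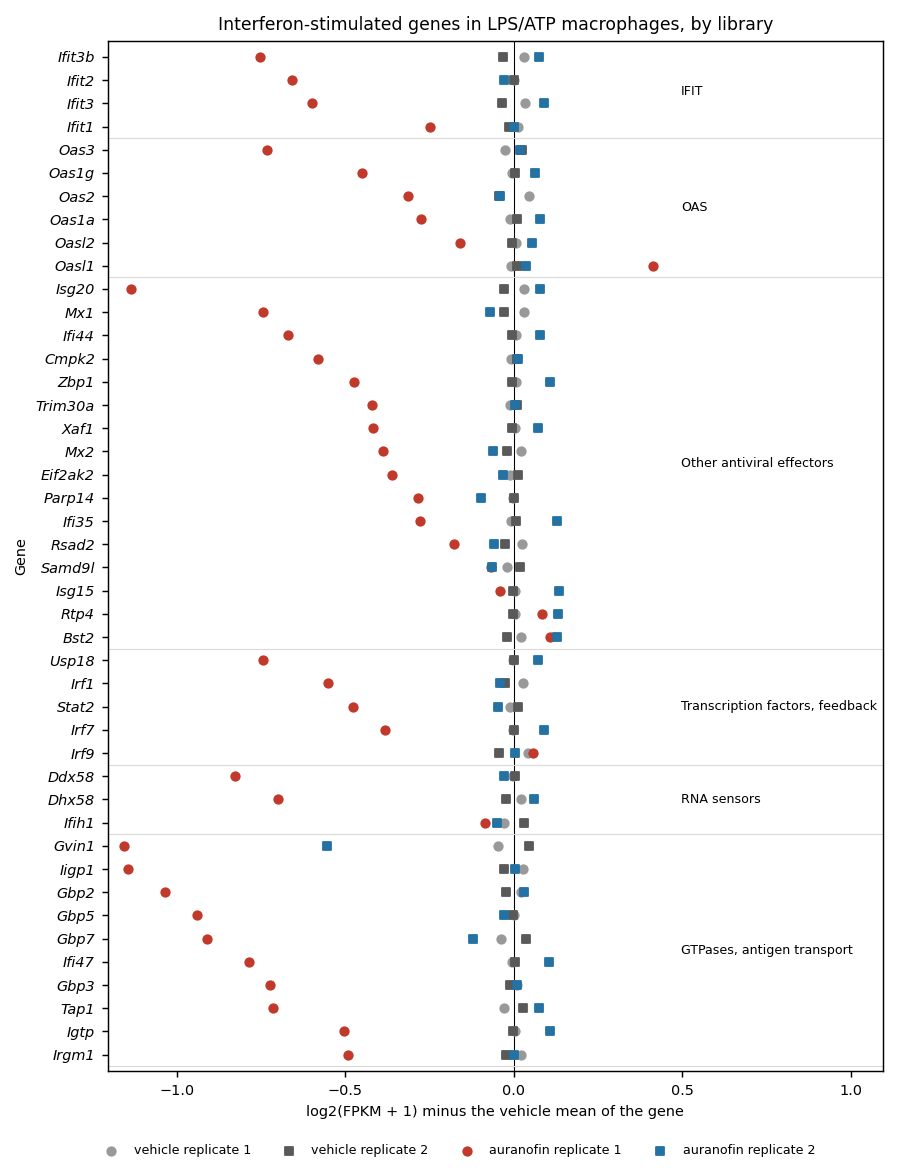
Difference of each BMDM library from the vehicle mean of the gene on log2(FPKM + 1), for the 44 members grouped by role; grey marks are the 2 vehicle libraries, red is auranofin replicate 1 and blue is auranofin replicate 2. Red marks lie left of the vehicle mean in 40 genes with a median of -0.48, and blue marks stay near it with a median of 0.015.

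The GTPases and Tap1 had a median of -0.85 on log2(FPKM + 1) in auranofin replicate 1, the lowest of the 6 role groups. Their levels there were -56.9% to -28.9% from the vehicle mean. In replicate 2 their median was 0.0063 and their levels ran from -33.0% to 7.87%. Gbp2 read 875 and 847 FPKM with vehicle, 420 FPKM in auranofin replicate 1 and 879 FPKM in replicate 2. Iigp1, a GTPase that attacks the vacuoles of intracellular parasites, read 226 and 218 FPKM, then 99.9 and 222 FPKM. In both genes replicate 2 lay within or just above the vehicle range. The 4 Gbp genes of the cluster at chr3:142496934-142638008 (GRCm38.p6) were at -51.3% to -39.5% in replicate 1.

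The IFIT genes, which lie together at chr19:34550550-34650009, were at -40.8% to -15.9% in auranofin replicate 1 and at -1.96% to 6.47% in replicate 2. Ifit2 read 1573 and 1574 FPKM with vehicle, 997 FPKM in replicate 1 and 1543 FPKM in replicate 2. Ifit3 read 1610.3 and 1537 FPKM, then 1039.9 and 1676 FPKM. Ifit1, the gene that fell in HSC cultures, read 1042 and 1023 FPKM, then 869 and 1033 FPKM, the smallest difference of its group.

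Of the 6 OAS genes, 5 were below the vehicle mean in auranofin replicate 1 and Oasl1 was above it. In replicate 2 the 6 ran from -2.81% to 5.60%. Oas3 read 271 and 281 FPKM with vehicle, 166 FPKM in auranofin replicate 1 and 279 FPKM in replicate 2, and the 4 Oas genes at chr5:120730333-120907544 were at -39.9% to -17.3% in replicate 1. Oasl1, a relative without the enzyme activity that limits Irf7 translation, read 682 and 690 FPKM, then 913 and 703 FPKM. Its neighbour Oasl2, in the pair at chr5:114896926-114937911, was at -10.5% in replicate 1, so the 2 genes of the pair lay on opposite sides of vehicle in that library.

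The 16 other antiviral effectors ran from -54.7% to 7.81% in auranofin replicate 1 and from -6.57% to 9.79% in replicate 2. Their medians on log2(FPKM + 1) were -0.37 and 0.043. Isg20 read 270.5 and 259.7 FPKM with vehicle, 120.2 FPKM in replicate 1 and 279.9 FPKM in replicate 2. In percent, its fall in replicate 1 was the largest of the group. The abundant members Rsad2 and Isg15 differed less: Rsad2 read 3025 and 2918 FPKM, then 2630.4 and 2855 FPKM. Isg15 read 2381 and 2372 FPKM, then 2309 and 2609 FPKM, and its log2 fold change of 0.047 turned below 0 under quantile normalization or median centring. Cmpk2, next to Rsad2 on chromosome 12, read 1690.2 and 1711 FPKM, then 1136 and 1715 FPKM. Bst2 was above vehicle in both treated libraries, with 1312 and 1275 FPKM, then 1394 and 1415 FPKM.

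Among the regulators and sensors, Usp18 read 564 and 565 FPKM with vehicle, 337 FPKM in auranofin replicate 1 and 593 FPKM in replicate 2. Ddx58, the RNA sensor RIG-I, read 135 and 135 FPKM, then 75.8 and 132 FPKM. Irf9 read 54.8 and 51.5 FPKM, then 55.3 and 53.3 FPKM; its groups overlapped, and its log2 fold change of 0.031 turned below 0 under median centring. The 5 transcription factors and feedback genes had a median of -0.48 on log2(FPKM + 1) in replicate 1 and 0.0047 in replicate 2. The 3 RNA sensors had medians of -0.70 and -0.029.

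Members with and without the promoter element described above were set side by side. In auranofin replicate 1 of the BMDMs, the 20 members with a response element had a median change of -28.6% (-51.3% to 7.81%), and the 14 with a window but without one had a median of -28.6% (-54.7% to 33.2%). In auranofin replicate 1 of the HSC cultures the medians were -14.3% and -12.7%. These are descriptions over genes of 1 library in each cell type, and auranofin replicate 2 was not described in this way.

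Of the 112 other pathway genes, 100 were tested in BMDMs, and none was called with both treated libraries. The median of these 100 on log2(FPKM + 1) was -0.52 in auranofin replicate 1 and 0.024 in replicate 2 (all genes 0.18 and 0.0049). Ifnb1 read 159 and 152 FPKM with vehicle, 129.8 FPKM in replicate 1 and 166 FPKM in replicate 2. The kinase Tyk2 read 67.7 and 67.5 FPKM, then 24.1 and 65.9 FPKM, while Jak1 read 72.2 and 75.8 FPKM, then 77.1 and 71.0 FPKM. Of the receptors, Ifnar1 read 33.7 and 32.1 FPKM, then 25.4 and 31.3 FPKM, and Ifngr2 63.6 and 65.5 FPKM, then 42.4 and 64.9 FPKM. Ifnar2 and Ifngr1 were not called in replicate 1 (80.7 and 28.2 FPKM there). Replicate 2 stayed within 10% of the vehicle mean in each of these genes.

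The 14 inducers of interferon ran from -1.39 to 1.14 on log2(FPKM + 1) in auranofin replicate 1, with a median of 0.021. Their median was -0.037 in replicate 2. Tlr3, Ikbke, Ticam1 and Traf3 are named here after their values were seen. Tlr3, the receptor for double-stranded RNA, read 68.3 and 70.1 FPKM with vehicle, 25.8 FPKM in replicate 1 and 71.1 FPKM in replicate 2, and the kinase Ikbke 189.9 and 181 FPKM, then 70.6 and 177 FPKM. The adaptors Ticam1 and Traf3 were higher in replicate 1, at 33.1 against 20.9 and 20.9 FPKM and at 10.4 against 4.03 and 4.25 FPKM. Irf3 read 6.54 and 5.81 FPKM, then 6.17 and 6.25 FPKM. The 6 brakes tested had a median of -0.93 on log2(FPKM + 1) in replicate 1 and 0.024 in replicate 2. The 70 further interferon-induced genes had medians of -0.55 and 0.041, where those of all genes were 0.18 and 0.0049. The macrophage markers summed to 9567 and 9397 FPKM with vehicle, 10160.3 FPKM in replicate 1 and 9570.2 FPKM in replicate 2. The 12 tested had medians of 0.057 and 0.0058 on log2(FPKM + 1) in these 2 auranofin libraries. Single markers were not level in replicate 1, where 5 were below 0 and 7 above, from -0.91 (Mertk) to 0.65 (Cd14). In replicate 2 the 12 ran from -0.097 to 0.11.

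**Figure D5:**
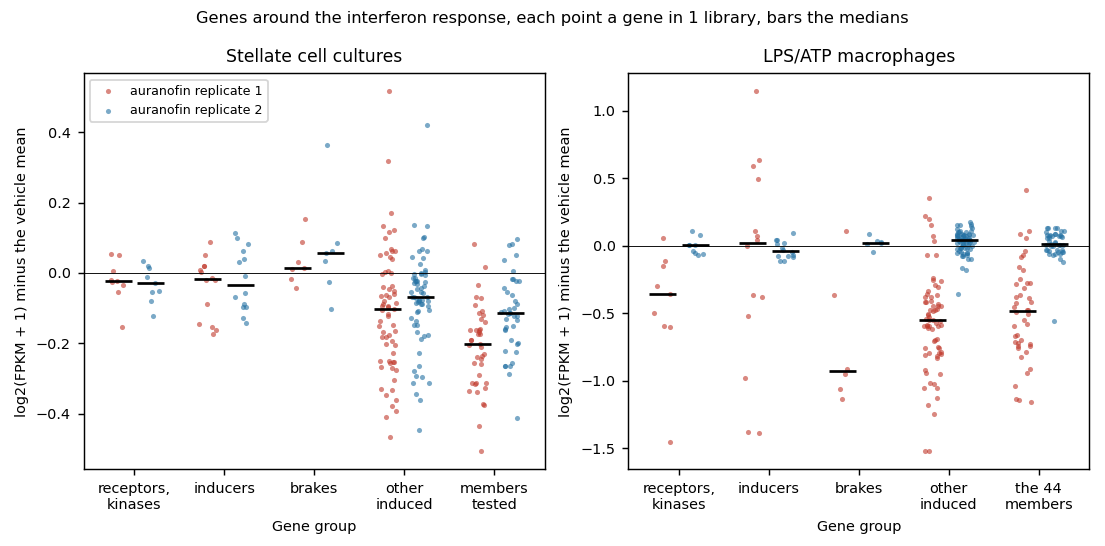
Difference of the 2 auranofin libraries from the vehicle mean on log2(FPKM + 1) for each tested gene of the pathway list and the members, in HSC cultures (left) and LPS/ATP BMDMs (right); each point is a gene in 1 library, red for replicate 1 and blue for replicate 2, and bars are medians. In BMDMs the members' bars stand at -0.48 and 0.015, and in HSC cultures at -0.20 and -0.11.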

How the data were processed

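Gene expression was measured by RNA sequencing in 8 libraries: HSC cultures and LPS/ATP BMDMs, each with 2 vehicle and 2 auranofin libraries, grouped by the sample labels. The authors deposited 1 table of FPKM values per cell type on mm10. Their processing notes name FastQC 0.11.7, Trimmomatic 0.38, HISAT2 2.1.0, StringTie 1.3.4d and CASAVA. FPKM values are scaled to transcript length and library, hold no counts, and a large rise of some genes lowers the share of the others. Depth was estimated from the 1-fragment steps of values under 0.2 FPKM. Only 44.1% to 52.9% of these came near whole steps, so reads were not recovered and no count test was run. The BMDM dose is 0.1 µM by the labels and 0.3 µM by the legend of the study's macrophage figure.

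Each table was fitted alone with limma 3.58.1 (R 4.3.3; eBayes with trend) on log2(FPKM + 1), for genes averaging 1 FPKM or more over the 4 libraries. A gene was called at a Benjamini-Hochberg adjusted p under 0.05 over all genes tested, two-sided, and a second rule asked for 1.5-fold with an unadjusted p under 0.05. Fold changes on this scale understate those of low genes. An exact permutation of 2 against 2 libraries cannot go below p = 0.333. The study's methods state no test for these tables. The fits were tested on simulated data. The members and lists were chosen with earlier results of these data known.

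Genes named were, in each cell type, members past either rule, the largest rise and fall of each role group, the 5 highest with vehicle, members 2-fold apart between auranofin libraries, and fixed pathway genes with up to 5 called each way; 1 of these pathway genes is not reported here. Alternatives were the pseudocount, the filter, 2 other normalizations, the eBayes settings, a replicate block and each library left out. Promoters were RefSeq windows of GRCm38.p6. Dendritic cell markers were also listed, and they summed to 2.47 to 4.11 FPKM over the 8 libraries.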

Additional observations from a re-analysis of the deposited data

Results flagged for a closer look

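Of the members, 4 lay below the vehicle mean in both auranofin libraries of the HSC cultures and above it in both auranofin libraries of the BMDMs. The share of all genes with this pattern was not counted. Most genes stood above vehicle in BMDM auranofin replicate 1: 32.3% of all genes had a log2 fold change below 0 there. Of the members, 40 of 44 (90.9%) lay below the vehicle mean in that library. The tables were normalized separately and doses and times differed, so the difference between cell types was not tested. Oasl1 read 13.7 and 14.4 FPKM with vehicle against 12.7 and 11.6 FPKM with auranofin in HSC cultures, and it was 33.2% above the vehicle mean in BMDM auranofin replicate 1 and 2.51% above it in replicate 2. Bst2 was 7.81% and 9.43% above it in BMDMs, and at -7.68% and -5.57% in HSC cultures. Rtp4 was 6.02% and 9.58% above it in BMDMs, and at -21.3% and -10.9% in HSC cultures. Irf9 was 4.12% and 0.284% above it in BMDMs, within the vehicle range of 51.5 to 54.8 FPKM for replicate 2, and its BMDM difference turned below 0 under median centring; it was at -9.69% and -3.06% in HSC cultures.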

How the results depend on the processing

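In HSC cultures, where 283 genes, 1 member and 6 pathway genes were called, no filter on low values gave 49, 0 and 0, no variance trend 129, 0 and 2, and the 1.5-fold rule 70, 0 and 0. Robust eBayes called 592 of 12149 genes and 5 of 41 members. A mean of at least 5 FPKM called 331 of 8814 genes and 2 of 32 members. Median centring called 312 of 12149 genes and 2 of 41 members. Leaving out 1 library gave 177 to 493 genes, 0 to 3 members, 1 to 6 pathway genes and member medians of -0.20 to -0.11, the 493 and the 3 without vehicle replicate 1. In BMDMs, where 1 gene and no member was called, no filter, quantile normalization and robust eBayes called 0 genes, no variance trend 2, and the 1.5-fold rule 14 genes and 1 member. Leaving out 1 BMDM library gave 1 to 5997 genes, 0 to 39 members, 0 to 86 pathway genes and member medians of -0.48 to 0.015, the median turning to 0.015 without auranofin replicate 1 and the largest counts coming without auranofin replicate 2. Median centring moved the BMDM member median from -0.23 to -0.33. The causes were not tested.

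Quantile normalization and median centring turned the log2 fold change of Irf3 to -0.011 and -0.00473 in HSC cultures and to -0.11 and -0.084 in BMDMs, and that of Isg15 in BMDMs to -0.020 and -0.046. Median centring also turned Irf9 to -0.061 and Jak1 to -0.092 in BMDMs. Over the libraries left out one at a time, single log2 fold changes that turned ran in HSC cultures from -0.016 to 0.082 for Ifngr2, -0.031 to 0.043 for Irf3, -0.034 to 0.081 for Isg20, -0.069 to 0.017 for Jak1 and -0.069 to 0.030 for Tyk2. In BMDMs they ran from -0.58 to 0.012 for Cmpk2, -1.03 to 0.031 for Gbp2, -0.60 to 0.091 for Ifit3, -0.15 to 0.11 for Ifnar2, -0.26 to 0.099 for Ifnb1, -0.11 to 0.0048 for Ifngr1, -0.60 to 0.0060 for Ifngr2, -1.14 to 0.0032 for Iigp1, -0.065 to 0.082 for Irf3, -0.012 to 0.074 for Irf9, -0.042 to 0.13 for Isg15, -1.13 to 0.078 for Isg20, -0.059 to 0.060 for Jak1, -0.73 to 0.018 for Oas3 and -0.74 to 0.071 for Usp18.

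With the replicate number as a block, 282 genes, 1 member and 5 pathway genes were called in HSC cultures, where Gbp8 and Mnda lost their calls (limma, adjusted p = 0.0719 and 0.0689), and 1 gene and no member in BMDMs. Same-numbered libraries deviated with a correlation of 0.109 in HSC cultures and -0.0551 in BMDMs over the genes tested, and with 2 pairs the numbers were not taken to pair the samples. Without counts, the precision of single low values is known only through the estimated depth.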

Other observations

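Values of some other genes of the pathway list follow, chosen after their values were seen. In BMDM auranofin replicate 1 the immunoproteasome subunits Psmb8, Psmb9 and Psmb10 were at -23.2%, -42.3% and -33.6% from the vehicle mean, and Nlrc5, an activator of MHC class I genes, was at -42.9%. The class I gene H2-K1 read 2407 and 2424 FPKM with vehicle, 2299 FPKM in replicate 1 and 2525 FPKM in replicate 2. H2-D1 read 3014 and 3029 FPKM, then 3175 and 3198 FPKM. B2m, the light chain of class I molecules, read 5818 and 5731 FPKM, then 5907 and 6101 FPKM. None of these genes was called with both treated libraries (limma, adjusted p over 0.05). In HSC cultures none was called either, and H2-D1 read 685 and 712 FPKM with vehicle against 786 and 765 FPKM with auranofin (limma, adjusted p = 0.11).

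Ifitm3, which hinders viral entry, read 340 and 401 FPKM with vehicle against 290 and 326 FPKM with auranofin in HSC cultures (limma, adjusted p = 0.221). Both treated libraries were below both vehicle libraries in Ifitm3, Ifitm1 and Ifitm2, as in 23.9% of all genes, and none of the 3 passed the test. In BMDM auranofin replicate 1 Ifitm1, Ifitm2 and Ifitm3 were at -50.9%, -26.8% and -18.9% from the vehicle mean, and all 3 were above it in replicate 2.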
